A study of Mus musculus with 4 samples.

Results

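Cells that met a classical monocyte gate were described in CD45+ immune cells sorted from mouse liver. The cells were chosen on their measured RNA counts, with unique molecular identifiers (UMIs) as the unit. A cell had 600 to 6000 detected genes and at most 5% mitochondrial UMIs. It then had at least 10 UMIs of Lyz2, at least 1 of Csf1r and at least 3 of Ccr2, F13a1, Chil3 and Fn1 together. It had fewer than 10 UMIs of C1qa, C1qb and C1qc, at most 1 of Ace, Treml4, Eno3 and Cd300e, fewer than 100 of S100a8 and S100a9, and 0 of Cd3d, Cd3e and Cd3g. Of 39121 deposited cells 36286 met the limits on detected genes and mitochondrial UMIs (kept cells), and 431 of these met the whole gate (gated cells). What follows for the genes of the gate is a description of that choice.

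The series held 4 libraries of 5′ single-cell RNA, 1 per group, all from female mice on a C57BL/6 background. The young WT library came from untreated mice of about 8 weeks. The treated WT, miR-146a-/- and miR-146a-/- Ccl5-/- (double knockout, DKO) libraries came from mice of 36 weeks that had received the liver carcinogen diethylnitrosamine (DEN, 25 mg/kg) on day 14 and, from weaning on day 21, a choline-deficient diet with 60% fat (CDHFD). How many mice went into each library was not stated. Treated and young WT differed in age, carcinogen and diet at the same time, and these cannot be told apart. No treated library carried the Ccl5 deletion alone. The deposited matrices summed to 90756272 UMIs in young WT, 103165826 in treated WT, 88706063 in miR-146a-/- and 103147246 in DKO.

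Classical monocytes leave the bone marrow through the chemokine receptor Ccr2, circulate with high Ly6c2 and enter inflamed liver, where they can become macrophages or cells that present antigen. miR-146a is a microRNA induced by NF-kB that represses adaptors of Toll-like receptor and interleukin-1 signalling, among them Irak1 and Traf6. Ccl5 is a chemokine made mainly by T cells and NK cells that attracts leukocytes. The mature microRNAs of the miR-146 family are shown because one of them is the deleted gene and the other remains in all 4 groups by genotype. Both sequences are from RefSeq (build GRCm38.p6), and capitals mark the seed, bases 2 to 8, which is the same in both.
miR-146a-5p: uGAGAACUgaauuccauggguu
miR-146b-5p: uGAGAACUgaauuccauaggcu
miR-146a-5p lies at chr11:43374435-43374456 on the minus strand and miR-146b-5p at chr19:46342790-46342811 on the plus strand. The deposited matrices held no row for either microRNA, so the miR-146a deletion was not checked in these counts.

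The Ccl5 deletion was checked first. Over all kept cells Ccl5 was 6174 CPM (UMIs of the gene per 1000000 UMIs of the summed cells) in young WT, 12544 in treated WT, 12496 in miR-146a-/- and 65.4 in DKO, so the DKO library stood apart as its label states. In the gated cells Ccl5 was 334 CPM in young WT, 616 in treated WT, 109.5 in miR-146a-/- and 40.3 in DKO. A single cell held 59.2% of the Ccl5 UMIs of the gated miR-146a-/- cells. The log2 ratio of DKO over miR-146a-/- in gated cells was -1.44, and it turned above 0 with at most 4500 detected genes and when cells with UMIs of other lineages were left out (1.66), so Ccl5 in these cells gave no stable direction.

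Kept cells numbered 10283 in young WT, 8329 in treated WT, 7824 in miR-146a-/- and 9850 in DKO, and gated cells 45, 93, 121 and 172. The gated cells held 698390, 1209741, 2191148 and 3001796 UMIs in the same order. Their median depth was 14559, 12369, 18438 and 17002 UMIs, against 7353, 7714, 7218 and 6918 in T cells. The deeper gated cells of miR-146a-/- and DKO had more chance to pass a minimum and to fail a maximum of the gate. Over the 4 libraries 745 barcodes were found in more than 1 library, 21 gated cells had a barcode also found in another library, and 0 barcodes were gated in more than 1 library.

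Counts near each limit, over all libraries and with the other conditions met, were as follows. For Lyz2 55 gated cells had 10 to 19 UMIs and 77 cells outside had 5 to 9. For Ccr2, F13a1, Chil3 and Fn1 together 40 gated cells had 3 to 4 UMIs and 49 outside had 1 to 2. For the patrolling monocyte genes Ace, Treml4, Eno3 and Cd300e 153 gated cells had 1 UMI and 106 outside had 2. For the complement genes C1qa, C1qb and C1qc 13 gated cells had 5 to 9 UMIs and 20 outside had 10 to 19. For S100a8 and S100a9 3 gated cells had 50 to 99 UMIs and 5 outside had 100 or more but fewer than 200, for Csf1r 27 gated cells had 1 UMI and 29 outside had 0, and for Cd3 40 cells outside had 1 UMI.

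The label classical monocytes held for only some of the gated cells. In 280 of the 431 the sum of F13a1, Chil3 and Fn1 alone reached 3 UMIs (18, 60, 87 and 115 by library). The other 151 reached the minimum through Ccr2 (27, 33, 34 and 57). These are called the F13a1-Chil3-Fn1 cells and the Ccr2-carried cells here, and the split was chosen after the values were seen. Ly6c2, the classical monocyte surface marker that the gate did not use, was 2272 CPM in young WT, 1279 in treated WT, 1713 in miR-146a-/- and 1019 in DKO in the F13a1-Chil3-Fn1 cells. Ccr2-carried cells had less of it in each library, at 185 CPM in young WT, 173 in treated WT, 113 in miR-146a-/- and 62.9 in DKO.

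Hp, which encodes the haemoglobin-binding haptoglobin, was 754 CPM in young WT, 640.1 in treated WT, 1206 in miR-146a-/- and 1257 in DKO in the F13a1-Chil3-Fn1 cells. Among the Ccr2-carried cells it was 17.4 CPM in young WT, 21.6 in treated WT, 26.2 in miR-146a-/- and 23.4 in DKO, so both genes lay far higher where F13a1, Chil3 and Fn1 did. The MHC class II genes H2-Aa, H2-Ab1 and H2-Eb1, which present antigen to CD4 T cells, ran the other way. Their summed median per cell was 16, 21, 1 and 7 UMIs in the F13a1-Chil3-Fn1 cells and 521, 506, 636 and 617 in the Ccr2-carried cells. At least 1 UMI of Flt3, Zbtb46 or Itgax, genes of conventional dendritic cells, was found in 27 of 27, 32 of 33, 31 of 34 and 50 of 57 Ccr2-carried cells, against 7 of 18, 24 of 60, 31 of 87 and 38 of 115 F13a1-Chil3-Fn1 cells, counts that include background. After each cell was thinned to 3000 UMIs, with cells of fewer UMIs left out, Flt3 was found in 29.6% (8 of 27) of Ccr2-carried cells in young WT, 9.09% (3 of 33) in treated WT, 35.3% (12 of 34) in miR-146a-/- and 22.8% (13 of 57) in DKO. T cells, which should lack it, had it in 0.756% (40 of 5294), 0.990% (37 of 3736), 0.383% (15 of 3913) and 0.547% (21 of 3839), the level of background. Itgax was found in 44.4% (12 of 27), 51.5% (17 of 33), 55.9% (19 of 34) and 52.6% (30 of 57) of Ccr2-carried cells after thinning. The F13a1-Chil3-Fn1 cells had it in 11.1% (2 of 18), 22.8% (13 of 57), 9.30% (8 of 86) and 7.89% (9 of 114), and T cells in 6.88% (364 of 5294), 9.98% (373 of 3736), 9.43% (369 of 3913) and 12.9% (495 of 3839), so in the knockouts the F13a1-Chil3-Fn1 cells were near or below the T cell level.

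Across the gated cells of a library, the sum of F13a1, Chil3 and Fn1 and the sum of the MHC class II genes were inversely ranked. Spearman's rho was -0.65, -0.71, -0.80 and -0.74 over 45, 93, 121 and 172 cells, which share a library and a depth, and the first sum is part of the gate. The plot of gated cells by these sums has no empty band between the groups. Of the F13a1-Chil3-Fn1 cells 7 of 18, 18 of 60, 18 of 87 and 26 of 115 also had 100 or more MHC class II UMIs, so these cells also varied. The split rests on genes the gate used and is a description. The F13a1-Chil3-Fn1 cells had a median depth of 12148, 10360.5, 18456 and 16622 UMIs, lowest in treated WT.

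**Figure D1:**
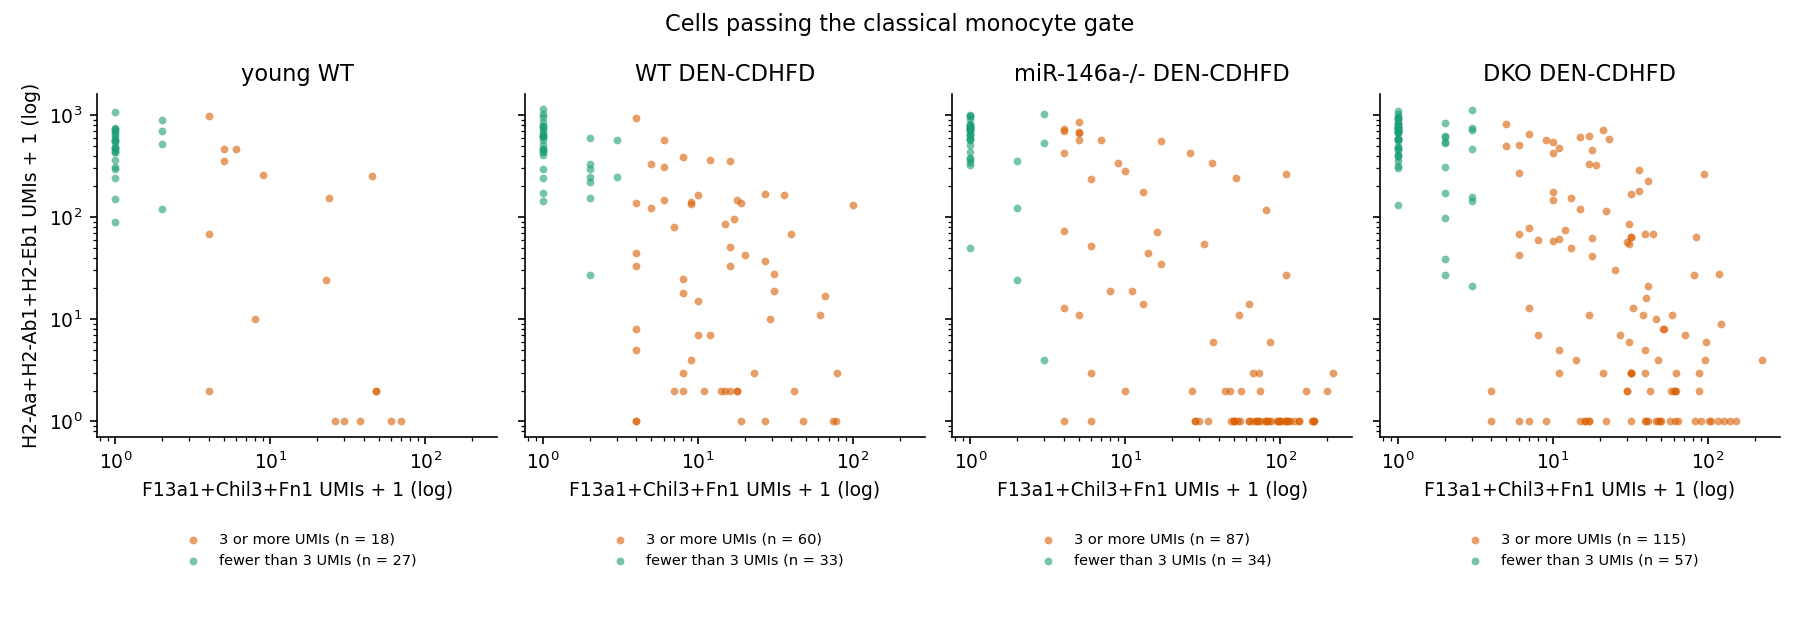
Each point is 1 gated cell, with F13a1+Chil3+Fn1 UMIs plus 1 on the x axis and H2-Aa+H2-Ab1+H2-Eb1 UMIs plus 1 on the y axis (both log scales), 1 panel per library. Cells with fewer than 3 UMIs on the x axis passed through Ccr2 and lie mostly high on the y axis, while 41 of the 87 miR-146a-/- cells with 3 or more had 0 MHC class II UMIs.

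Gated cells made up 0.438% (0.319 to 0.585%) of kept cells in young WT, 1.12% (0.902 to 1.37%) in treated WT, 1.55% (1.28 to 1.85%) in miR-146a-/- and 1.75% (1.497 to 2.02%) in DKO. Ranges in brackets are exact 95% intervals, with Newcombe's method for differences of shares, and like every interval here they cover counting error only, not differences between mice. Treated WT was above young WT by 0.679 percentage points (0.427 to 0.952), and miR-146a-/- above treated WT by 0.430 percentage points (0.0765 to 0.791). DKO minus miR-146a-/- was 0.1997 percentage points (-0.183 to 0.574), an interval that holds 0. The F13a1-Chil3-Fn1 cells were 0.175% (0.104 to 0.277%), 0.720% (0.550 to 0.926%), 1.11% (0.892 to 1.37%) and 1.17% (0.965 to 1.40%) of kept cells.

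The step from treated WT to miR-146a-/- depended on the upper limit of detected genes and on depth. With at most 4500 detected genes the shares were 1.08% in treated WT and 1.11% in miR-146a-/-, close to each other. When cells were thinned to 4000 UMIs before the gate, the step was wider, with shares of 0.357% in young WT, 1.504% in treated WT, 2.66% in miR-146a-/- and 3.17% in DKO. Among cells with at least 10 Lyz2 UMIs and no Cd3 UMI, gated cells were 18.9% in young WT (45 of 238), 19.02% in treated WT (93 of 489), 12.1% in miR-146a-/- (121 of 1003) and 10.7% in DKO (172 of 1606), so their place among Lyz2 cells was lower in both knockouts. Patrolling monocytes, the Ace and Treml4 cells that crawl along vessel walls, were 1.33% (1.12 to 1.57%), 2.82% (2.48 to 3.20%), 10.5% (9.87 to 11.2%) and 13.7% (12.98 to 14.3%) of kept cells.

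The Cd3 condition removed cells at different rates. Of the cells that met all other conditions it took 54.1% in young WT (53 of 98), 61.9% in treated WT (151 of 244), 46.0% in miR-146a-/- (103 of 224) and 31.7% in DKO (80 of 252). Without that condition the shares of kept cells were 0.953%, 2.93%, 2.86% and 2.56%, and treated WT was the highest.

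**Figure D2:**
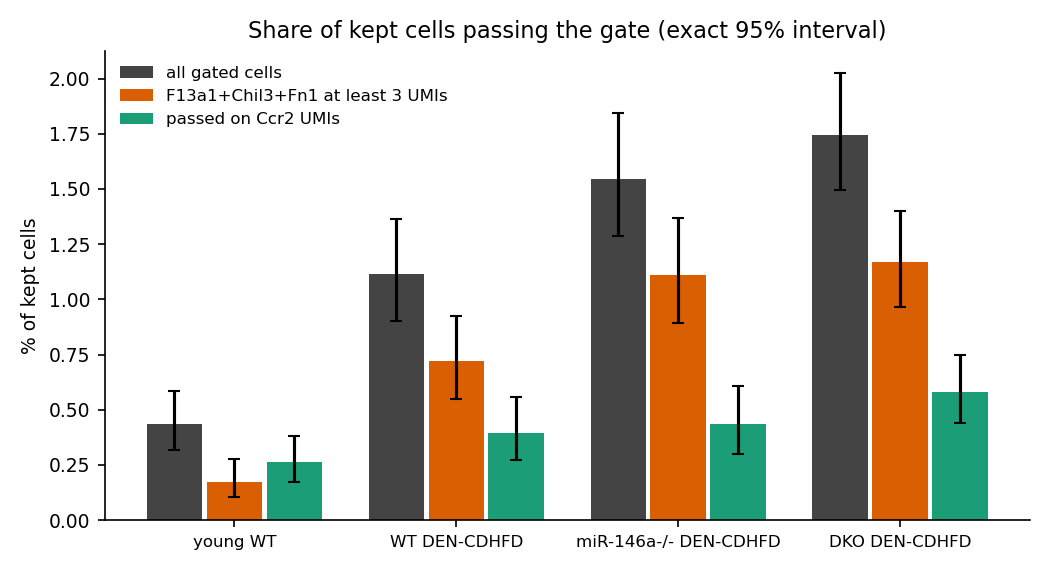
Share of kept cells in % (y axis, from 0) for each library (x axis), as bars for all gated cells, the F13a1-Chil3-Fn1 cells and the Ccr2-carried cells, with exact 95% intervals. All gated cells run from 0.438% in young WT to 1.75% in DKO, and the Ccr2-carried cells outnumber the others in young WT only.

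The 20 most abundant genes of the gated cells included Cd74, the invariant chain of MHC class II, the lysozyme gene Lyz2, the actin gene Actb and the ferritin genes Fth1 and Ftl1. Fth1, the iron-storing heavy chain, was 4015 CPM in young WT, 9215 in treated WT, 3669 in miR-146a-/- and 5490.1 in DKO. It was highest in treated WT. Cst3, a protease inhibitor abundant in dendritic cells, was 8306 CPM in young WT, 3907 in treated WT, 3253 in miR-146a-/- and 2981 in DKO. Its level in the F13a1-Chil3-Fn1 cells was 1959 CPM in young WT, 2719 in treated WT, 1985 in miR-146a-/- and 2208 in DKO, without the high young WT value.

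Patrolling monocytes had less than the gated cells of the classical monocyte genes Vcan and Ly6c2, which the gate did not use. Vcan, a matrix proteoglycan gene, was 17.2 CPM in young WT, 44.6 in treated WT, 193 in miR-146a-/- and 116 in DKO in gated cells. In patrolling monocytes it was 3.31, 16.3, 49.6 and 45.7 CPM, in the same library order. C1q-high macrophages had 0, 11.6, 16.3 and 12.1 CPM of it. Ly6c2 was 902 CPM in young WT, 771 in treated WT, 1267 in miR-146a-/- and 665 in DKO in gated cells, against 298, 423, 346 and 284 CPM in patrolling monocytes. Hp was lower in all gated cells than in patrolling monocytes in the treated libraries, at 271 CPM in young WT, 356 in treated WT, 877 in miR-146a-/- and 799.5 in DKO in gated cells and 131, 600.2, 1299 and 1100.4 CPM in patrolling monocytes. The F13a1-Chil3-Fn1 cells alone lay above patrolling monocytes for Hp in young WT, treated WT and DKO and below them in miR-146a-/-. Ear2, a ribonuclease gene of patrolling monocytes, was 27.2 CPM in young WT, 97.5 in treated WT, 37.0 in miR-146a-/- and 43.3 in DKO in gated cells and 275, 335, 339 and 360.4 CPM in patrolling monocytes. The populations were split by counts of the same cells, so these differences are descriptions.

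Monocytes gain MHC class II as they take on antigen presentation. A cell was called without MHC class II when it had 0 UMIs of H2-Aa, H2-Ab1 and H2-Eb1 after thinning to 3000 UMIs. These were 17.8% (8 of 45) of gated cells in young WT, 16.7% (15 of 90) in treated WT, 40.8% (49 of 120) in miR-146a-/- and 26.9% (46 of 171) in DKO. The share was higher in miR-146a-/- than in treated WT by 24.2 percentage points (11.9 to 35.1). DKO minus miR-146a-/- was -13.9 percentage points (-24.8 to -2.95), and treated minus young WT -1.11 percentage points (-16.1 to 11.3). These values are 1 random draw per cell, and how the draws were made was changed after first values had been seen. Expected over all draws, the shares were 16.2%, 13.7%, 41.6% and 27.2%, and the intervals of the differences depend on the draw.

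Among the F13a1-Chil3-Fn1 cells the shares without MHC class II were 44.4% (8 of 18), 26.3% (15 of 57), 57.0% (49 of 86) and 40.4% (46 of 114), and expected over all draws 40.4%, 21.6%, 57.9% and 40.8%. The difference of miR-146a-/- from treated WT was 30.7 percentage points (14.2 to 44.5) and DKO differed from miR-146a-/- by -16.6 percentage points (-29.7 to -2.65). Patrolling monocytes showed the same order among the treated libraries, with 28.9% (39 of 135), 28.1% (65 of 231), 64.0% (509 of 795) and 56.6% (734 of 1297) at 0 UMIs, so the higher shares in the knockouts were not confined to gated cells. In T cells, which make little MHC class II in mice, 80.8% (4279 of 5294), 72.5% (2710 of 3736), 86.3% (3375 of 3913) and 84.1% (3229 of 3839) had 0 UMIs, so a minority of T cells had such UMIs, most often in treated WT. Whether these came from free RNA or doublets, and their part in the differences between gated cells, was not tested. With Cd74 added to the sum the shares of all gated cells were 8.89%, 7.78%, 24.2% and 10.5%.

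**Figure D3:**
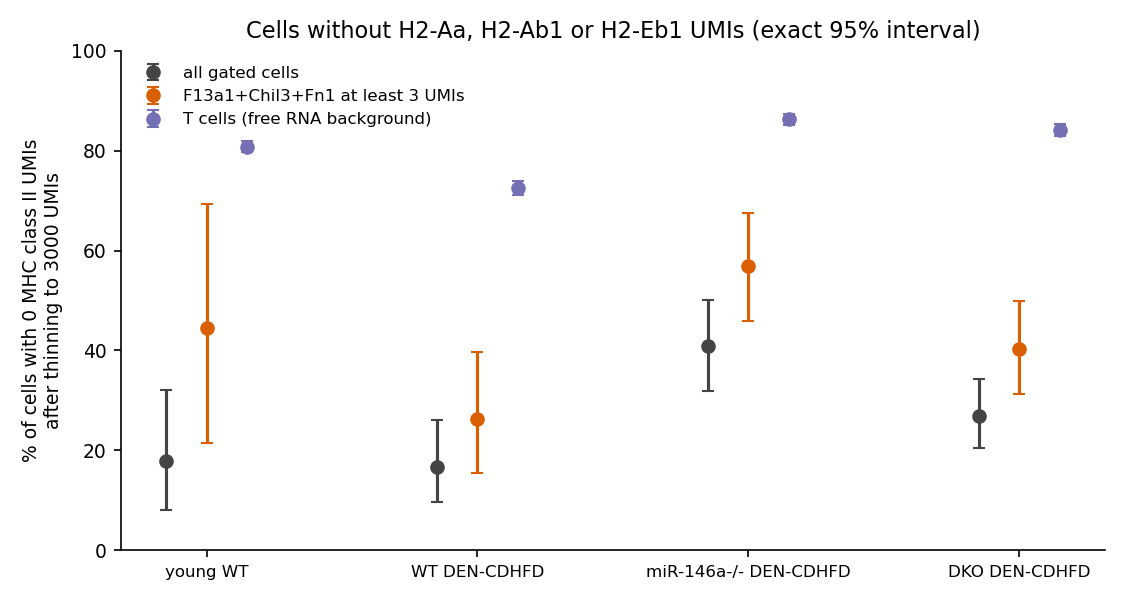
Share of cells in % (y axis) with 0 UMIs of H2-Aa, H2-Ab1 and H2-Eb1 after thinning to 3000 UMIs, for each library (x axis), with exact 95% intervals. Gated cells and F13a1-Chil3-Fn1 cells without these genes were most frequent in miR-146a-/- (40.8% and 57.0%), and 72.5% to 86.3% of T cells had 0 UMIs.

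Treated WT was compared with young WT to describe what age, DEN and diet together went with. The 10 highest ratios included Spp1, Fabp5 and Cd63, all of lipid-associated macrophages, and the 10 lowest included the dendritic cell genes Xcr1, Itgae and Clec9a. Genes were compared by the UMIs summed over the gated cells of a library, and a gene entered when either library had 50 CPM or more from 20 UMIs or more, the genes of the gate left out. A gene that met this minimum in 1 library only was mostly bound to be higher there, so counts and medians of lists depend in part on this rule. Of 3431 such genes 108 were at least 2-fold higher in treated WT (3.15%) and 86 at least 2-fold lower (2.51%). With 1 library per group these are counts of ratios, with no test. Results are given for all gated cells and, for many genes and lists, for the F13a1-Chil3-Fn1 cells. Over the F13a1-Chil3-Fn1 cells 231 (6.60%) were higher and 119 (3.40%) lower of 3500.

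Spp1, the secreted phosphoprotein osteopontin, was 2.86 CPM in young WT, 113 in treated WT, 19.2 in miR-146a-/- and 194 in DKO in gated cells, a log2 ratio of treated over young WT of 4.99 (3.42 to 8.37). Fabp5, a fatty acid carrier, was 37.2 CPM in young WT, 355 in treated WT, 89.5 in miR-146a-/- and 162 in DKO, with a ratio of 3.23 (2.68 to 3.88). Cd63, a lysosomal membrane gene, was 14.3 CPM in young WT, 171 in treated WT, 7.76 in miR-146a-/- and 42.6 in DKO, with a ratio of 3.51 (2.67 to 4.66). In the whole lipid-associated macrophage list 7 higher and 0 lower of 9 that met the minimum were past 2-fold, with a median log2 ratio of 2.04 against 0.07 for all 3431 genes. Spp1, Fabp5, Cd63 and Trem2 were below the minimum in young WT and entered through treated WT alone, so they could only come out higher. The others, Ctsd, Ctsb, Lpl, Lgals3 and Cd9, met it in both libraries, with ratios of 2.04, 1.36, 1.05, 0.86 and 0.44. In the F13a1-Chil3-Fn1 cells the count was 7 higher and 0 lower of 10.

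The list of NF-kB and inflammatory genes had 7 higher and 0 lower of 19, with a median of 0.77. Il1rn, the interleukin-1 receptor antagonist, was 50.1 CPM in young WT, 189 in treated WT, 26.0 in miR-146a-/- and 66.3 in DKO, so treated WT was the highest of the 4. Sod2, the mitochondrial superoxide dismutase, was 77.3 CPM in young WT, 294 in treated WT, 133 in miR-146a-/- and 201 in DKO. Clec4e, a receptor for microbial and dead-cell glycolipids, was 24.3 CPM in young WT, 216 in treated WT, 113 in miR-146a-/- and 162 in DKO, found in 8, 43, 68 and 82 gated cells. Clec4d, its partner receptor, had a log2 ratio of 2.71 (1.54 to 4.51), so both receptors were low in young WT. Slc7a11, the cystine transporter, was 5.73 CPM in young WT, 72.7 in treated WT, 5.93 in miR-146a-/- and 14.3 in DKO. Il1b itself differed little between the WT libraries, at 700.2 and 751 CPM.

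The conventional dendritic cell list had 0 higher and 5 lower of 7, with a median of -1.38. Xcr1, Itgae, Flt3, Clec10a and Zbtb46 were below the minimum in treated WT and entered through young WT alone. They could only come out lower, so the filter in part set this count and median. Cd209a and Clec9a met it in both libraries, with log2 ratios of -0.98 and -2.39. Xcr1, the chemokine receptor of cross-presenting dendritic cells, was 130.3 CPM in young WT, 10.7 in treated WT, 19.6 in miR-146a-/- and 6.66 in DKO and had 0 UMIs in the F13a1-Chil3-Fn1 cells of all 4 libraries. Clec9a, a receptor for dead cells on the same type, was 269 CPM in young WT, 51.3 in treated WT, 28.8 in miR-146a-/- and 25.0 in DKO, and in the F13a1-Chil3-Fn1 cells 20.8 CPM in young WT, 12.2 in treated WT, 1.27 in miR-146a-/- and 2.65 in DKO. The list summed to 985, 355, 468 and 518 CPM in young WT, treated WT, miR-146a-/- and DKO, and its most abundant gene was Cd209a. The share of Ccr2-carried cells among gated cells was also highest in young WT, at 60.0% against 35.5% in treated WT, 28.1% in miR-146a-/- and 33.1% in DKO. Within the Ccr2-carried cells the log2 ratios of treated over young WT were also below 0, at -3.04 (-4.05 to -2.24) for Xcr1, -2.03 (-2.50 to -1.59) for Clec9a and -2.29 (-3.51 to -1.33) for Itgae, an integrin of the same dendritic cells. Rtl8c, Snx22, Cd24a and Ppt1, also among the 10 lowest ratios, were mostly in the Ccr2-carried cells of young WT, with levels there of 334, 109, 227 and 761 CPM against 0, 0, 0 and 117 in the F13a1-Chil3-Fn1 cells. Cd81, a tetraspanin gene, had a log2 ratio of -1.93 (-2.59 to -1.32) over gated cells and -2.27 in the F13a1-Chil3-Fn1 cells. Cxcl9, a chemokine induced by interferon gamma, was also among the 10 lowest, at 210.5 CPM in young WT and 47.1 in treated WT, and its ratio was above 0 in the F13a1-Chil3-Fn1 cells (1.15).

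A few ratios rested on few cells. Klk1, a kallikrein gene of plasmacytoid dendritic cells, had 0 UMIs in young WT and 52.9 CPM in treated WT, at least 12.3-fold higher, from 2 cells. Xcl1, a chemokine of NK and CD8 T cells, was 4.30 CPM in young WT, 153 in treated WT, 4.11 in miR-146a-/- and 83.6 in DKO, and 1 cell held 69.2% of its UMIs in treated WT. Gzma, a granzyme of the same cells, came from 1 cell in young WT (123 CPM). Ctsw, another gene of cytotoxic lymphocytes, was found in 6 cells of treated WT. The NK cell list summed to 200.5, 216, 41.5 and 175 CPM, led by Nkg7, and Ncr1 or Klrb1c UMIs were in 3 of 45, 10 of 93, 2 of 121 and 7 of 172 gated cells. The part of NK cell RNA in these ratios was not tested. Cd7, a surface gene of T and NK cells, had a log2 ratio of 4.01 (2.97 to 5.59) and was found in 4, 17, 23 and 29 gated cells.

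Mgst1, a glutathione transferase gene of classical monocytes, was 400.2 CPM in young WT (324 to 489), 125 in treated WT (99.6 to 156), 361 in miR-146a-/- (332 to 391) and 240.3 in DKO (219 to 263) in the F13a1-Chil3-Fn1 cells, with a log2 ratio of treated over young WT of -1.67 (-2.12 to -1.24). It was lowest in treated WT. The classical monocyte genes outside the gate gave 2 higher and 2 lower of 15 over all gated cells, with a median of 0.26, and 1 higher and 3 lower of 16 in the F13a1-Chil3-Fn1 cells, with a median of -0.23, so the list had no stable direction. Nr1h3, the sterol-sensing receptor LXR alpha, was 25.0 CPM in young WT, 121 in treated WT, 29.1 in miR-146a-/- and 59.3 in DKO. Apoe, a lipid carrier under its control, was 942 CPM in young WT, 1994 in treated WT, 499 in miR-146a-/- and 857 in DKO. These were highest in treated WT. Type I interferon genes gave 0 higher and 0 lower of 15 over all gated cells (median -0.31) and 0 higher and 7 lower of 18 in the F13a1-Chil3-Fn1 cells (median -0.69), of which young WT held 18. MHC class II genes gave 0 higher and 0 lower of 8 over all gated cells (median -0.38) and 0 higher and 0 lower of 7 in the F13a1-Chil3-Fn1 cells (median -0.61).

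**Figure D4:**
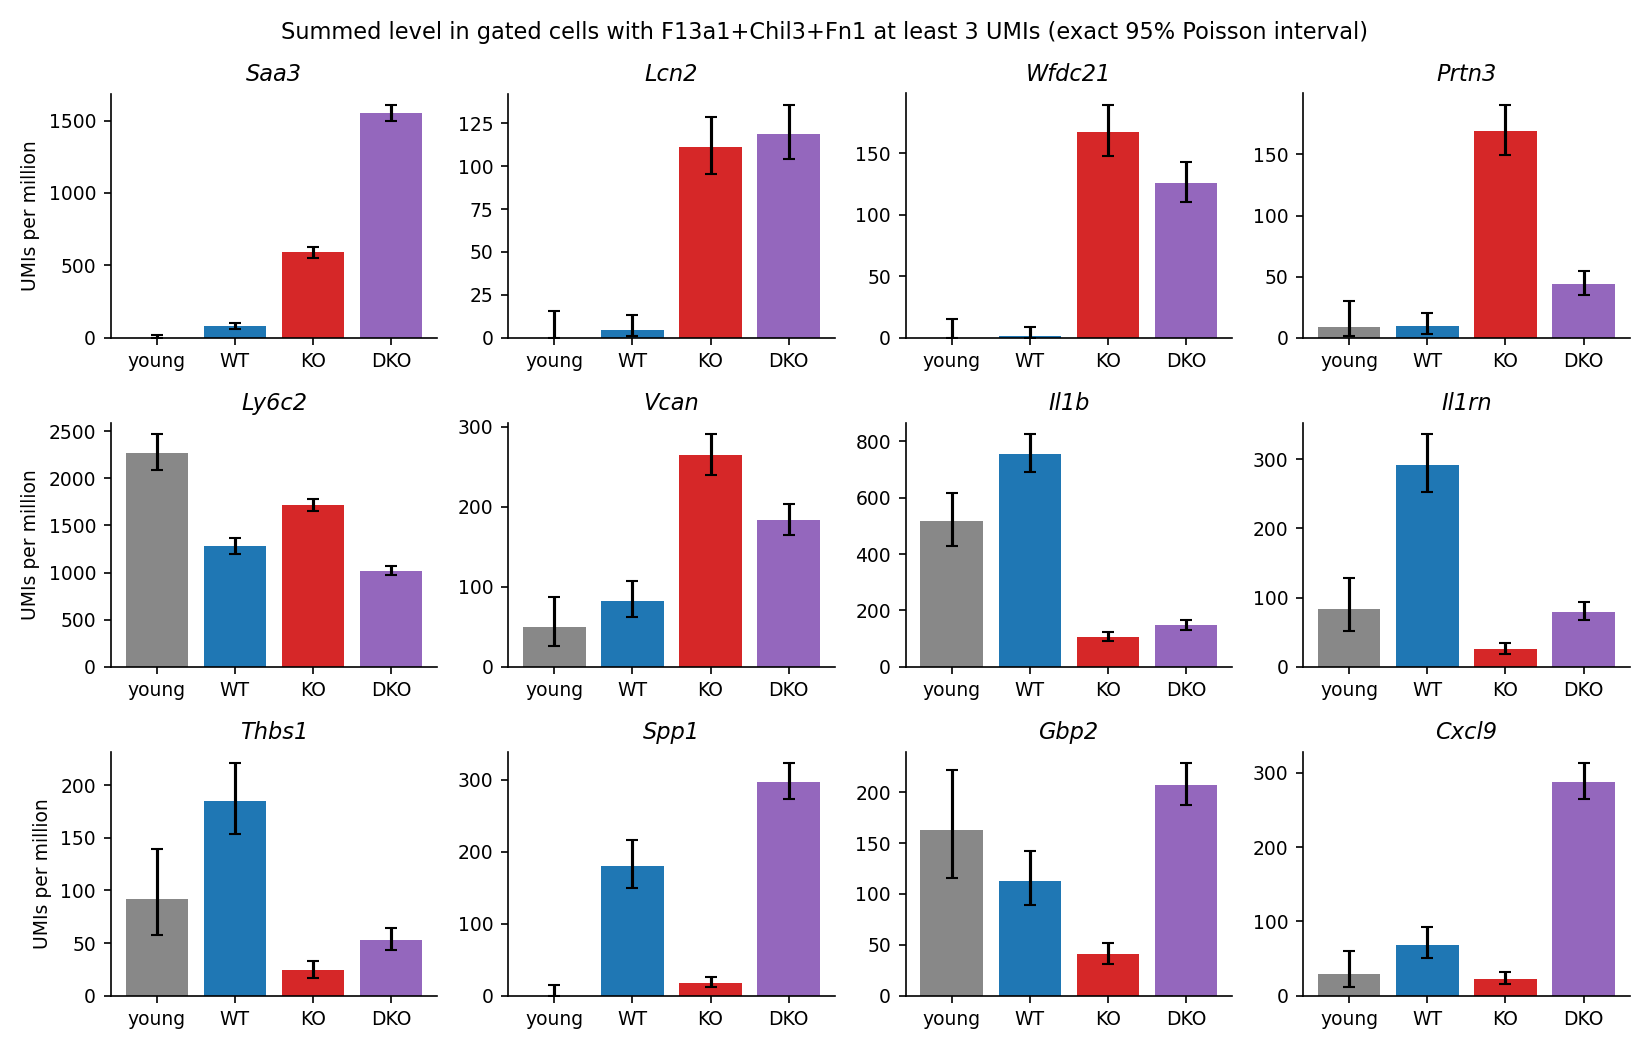
Level of 12 genes, chosen after their values were seen, in CPM (y axes, each from 0) over the F13a1-Chil3-Fn1 cells of young WT (young), treated WT (WT), miR-146a-/- (KO) and DKO, with exact 95% Poisson intervals. Saa3, Lcn2, Wfdc21 and Vcan were higher in KO and DKO than in WT, Il1b, Il1rn and Thbs1 were lower, and Spp1, Gbp2 and Cxcl9 were lower in KO than in DKO.

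The comparison of miR-146a-/- with treated WT addresses what the microRNA's loss goes with in treated liver. The acute-phase and granule genes Saa3, Lcn2, Wfdc21, Lrg1 and Prtn3 were higher in miR-146a-/-, and the medians of the inflammatory, lipid-associated macrophage and interferon lists were below that of all genes. Of 3424 genes 91 were at least 2-fold higher (2.66%) and 137 at least 2-fold lower (4.0%). Over the F13a1-Chil3-Fn1 cells 152 (4.30%) were higher and 227 (6.43%) lower of 3533.

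Saa3, an acute-phase serum amyloid made by myeloid cells (chr7:46711998-46715700, GENCODE vM21, GRCm38), was 0 CPM in young WT (0 to 15.4), 79.4 in treated WT (59.3 to 104), 590.2 in miR-146a-/- (553 to 629) and 1549 in DKO (1494 to 1606) in the F13a1-Chil3-Fn1 cells. Its log2 ratio of miR-146a-/- over treated WT was 2.88 (2.49 to 3.33). Lcn2, the iron-withholding lipocalin (chr2:32384633-32388252), was 0 CPM in young WT (0 to 15.4), 4.58 in treated WT (0.945 to 13.4), 111 in miR-146a-/- (95.5 to 129) and 119 in DKO (104 to 136), with a ratio of 4.38 (3.03 to 6.89). Both knockouts lay above both WT libraries for each gene, with intervals that did not meet. Wfdc21 (chr11:83746940-83752642), a whey acidic protein domain gene, was 0 CPM in young WT, 1.53 in treated WT, 168 in miR-146a-/- and 125 in DKO. Lrg1, a leucine-rich glycoprotein of the acute phase, was 0 CPM in young WT, 4.58 in treated WT, 102 in miR-146a-/- and 102 in DKO. These 2 were close to absent from both WT libraries. Ifitm1, an interferon-induced membrane gene, was 0 CPM in young WT, 16.8 in treated WT, 201 in miR-146a-/- and 199.02 in DKO.

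The genes were spread over many cells. After thinning to 3000 UMIs, Saa3 was found in 8.77% (5 of 57, 2.91 to 19.3%) of F13a1-Chil3-Fn1 cells in treated WT, 33.7% (29 of 86, 23.9 to 44.7%) in miR-146a-/- and 38.6% (44 of 114, 29.6 to 48.2%) in DKO. In T cells it was found in 0.161% (6 of 3736), 0.256% (10 of 3913) and 0.234% (9 of 3839), a background far below the share in the knockouts' F13a1-Chil3-Fn1 cells. Without thinning at least 1 of Saa3, Lcn2, Wfdc21 and Lrg1, a set chosen after its values were seen, was found in 0 of 18, 11 of 60, 57 of 87 and 80 of 115 F13a1-Chil3-Fn1 cells, in the order young WT, treated WT, miR-146a-/- and DKO. All 4 genes were found together in 0 of 18, 0 of 60, 18 of 87 and 21 of 115. The young WT count, 0 of 18 cells, allows a share of cells with a UMI of up to 16.7% at a floor of 3 cells, and the exact 95% interval reaches 18.5%.

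The set was found more often in cells with little MHC class II. In miR-146a-/- 44 of the 53 gated cells with 0 to 2 MHC class II UMIs had it (83.0%) and 15 of the 68 with 3 or more (22.1%). In DKO 40 of 46 (87.0%) and 44 of 126 (34.9%) had it. The cells with 3 or more include all Ccr2-carried cells. Among F13a1-Chil3-Fn1 cells with 3 or more the set was found in 13 of 34 in miR-146a-/- (38.2%) and 40 of 69 in DKO (58.0%), so the difference was smaller there.

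Lcn2 and Mmp8 are also neutrophil genes. Of 12 listed neutrophil genes 3 met the minimum in this comparison, with 2 higher and 0 lower. Lcn2 and Mmp8, at 2.48 and 6.61 CPM in treated WT gated cells, met it through miR-146a-/- alone, so they could only come out higher. The list summed to 88.8, 127, 235 and 205 CPM, with Csf3r as its most abundant gene. Another 5 genes that mark neutrophils or their granules were near 0 in both knockouts. They are a selection, and the whole list summed higher in both knockouts than in both WT libraries. The part of neutrophil RNA in these values was not tested. Camp, an antimicrobial peptide gene, was 0 CPM in young WT, 0 in treated WT, 0.456 in miR-146a-/- and 0 in DKO in gated cells and 1244, 0, 15947 and 12983 CPM in the 19, 14, 66 and 69 neutrophils of the 4 libraries. Ngp, another granule protein gene, was 0 CPM in young WT, 0 in treated WT, 1.37 in miR-146a-/- and 0.333 in DKO in gated cells and 4219, 0, 23419.6 and 16248 CPM in neutrophils, and Ltf, Ly6g and Cxcr2 were each below 1 CPM in both knockouts. S100a8, a calcium-binding gene of neutrophils and monocytes that the gate limits together with S100a9, was not near 0, at 0 CPM in young WT, 42.8 in treated WT, 239.8 in miR-146a-/- and 314 in DKO in the F13a1-Chil3-Fn1 cells. After thinning it was found in 0% (0 of 18), 3.51% (2 of 57), 29.1% (25 of 86) and 25.4% (29 of 114) of them. T cells had it in 0.170% (9 of 5294), 0.161% (6 of 3736), 1.69% (66 of 3913) and 0.912% (35 of 3839), a share also higher in both knockouts. The gate limits this gene, so its values in gated cells describe that choice. Lcn2 in neutrophils was 2696, 374, 10327 and 6927 CPM. Patrolling monocytes had 1.89, 5.80, 489 and 407 CPM of Lcn2 and 14.7, 31.9, 496 and 672 CPM of Saa3, so these genes were also high there in both knockouts.

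Prtn3, the proteinase 3 of early granules, was 8.34 CPM in young WT, 9.17 in treated WT, 169 in miR-146a-/- and 43.9 in DKO in the F13a1-Chil3-Fn1 cells, and miR-146a-/- stood above the other 3. It was found in 2 of 18, 3 of 60, 48 of 87 and 38 of 115 of them. Of the progenitor list, Elane was 0 CPM in young WT, 0 in treated WT, 17.3 in miR-146a-/- and 0.666 in DKO in gated cells and Mpo at most 1.83 CPM, while Ms4a3 had 0 UMIs in all 4, and the list summed to 242, 103, 238 and 125 CPM with Flt3 the most abundant. Mmp8, a collagenase, was 45.9 CPM in young WT, 12.2 in treated WT, 81.0 in miR-146a-/- and 72.5 in DKO in the F13a1-Chil3-Fn1 cells. Pi16, a peptidase inhibitor, was 50.02 CPM in young WT, 22.9 in treated WT, 89.2 in miR-146a-/- and 65.1 in DKO. Treated WT was the low library for both, and young WT lay between.

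Of 16 listed cell cycle genes 9 met the minimum in the F13a1-Chil3-Fn1 cells for miR-146a-/- over treated WT. Of these 7 were higher and 0 lower, with a median of 3.85 against 0.01 for all genes. Genes near 0 in treated WT met the minimum through miR-146a-/- alone, so the filter in part set this count and median. Top2a, the topoisomerase of dividing cells, was 4.17 CPM in young WT, 4.58 in treated WT, 68.3 in miR-146a-/- and 30.2 in DKO. Ccnb2, a mitotic cyclin, was 0 CPM in young WT, 0 in treated WT, 72.7 in miR-146a-/- and 29.6 in DKO, and Ube2c, a ubiquitin enzyme of mitosis, had a log2 ratio of 2.23 (1.70 to 2.86) over gated cells. Without thinning, at least 3 UMIs of Mki67, Top2a, Birc5, Ccnb2, Ube2c and Cdk1 together, a set chosen after its values were seen, were found in 0 of 18, 0 of 60, 15 of 87 and 9 of 115 F13a1-Chil3-Fn1 cells. Of the last 2 counts, 15 and 6 cells also had Prtn3. After thinning, Mki67 was found in 1 of 18, 0 of 57, 6 of 86 and 3 of 114. Among Ccr2-carried cells at least 3 UMIs of the set were found in 3 of 27, 5 of 33, 7 of 34 and 10 of 57. Over all gated cells the list had 3 higher and 0 lower of 10, with a median of 0.50.

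Of the classical monocyte genes outside the gate 5 higher and 1 lower of 16 were past 2-fold over all gated cells, with a median of 0.41 against 0.03 for all genes. The count in the F13a1-Chil3-Fn1 cells was 4 higher and 2 lower of 16 with a median of 0.21. Vcan was 50.02 CPM in young WT, 82.5 in treated WT, 264 in miR-146a-/- and 184 in DKO in these cells. Also past 2-fold higher over gated cells were Mgst1, Hp and Ifitm6, with ratios of 1.92, 1.30 and 1.30. Ly6c2, Hp and Itgam did not reach 2-fold in the F13a1-Chil3-Fn1 cells, with ratios of 0.42, 0.91 and 0.68. Thbs1, the matrix protein thrombospondin 1, went the other way, at 91.7 CPM in young WT (57.5 to 139), 185 in treated WT (153 to 221), 24.04 in miR-146a-/- (17.0 to 33.0) and 52.9 in DKO (43.1 to 64.4). Both knockouts lay below treated WT for it. The list of secreted and lysosomal genes gave 3 higher and 0 lower of 12 over gated cells, with a median of 0.76. In the F13a1-Chil3-Fn1 cells Anxa2, a membrane-binding annexin, was 825 CPM in young WT, 732 in treated WT, 1488 in miR-146a-/- and 1266 in DKO. Its partner S100a10 was 521 CPM in young WT, 474 in treated WT, 979.9 in miR-146a-/- and 798 in DKO. The leukotriene B4 receptor Ltb4r1 was 58.4 CPM in young WT, 42.8 in treated WT, 168 in miR-146a-/- and 153 in DKO.

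The NF-kB and inflammatory list had 0 higher and 9 lower of 18 over all gated cells, with a median of -0.93, and 0 higher and 12 lower of 19 in the F13a1-Chil3-Fn1 cells, with a median of -1.32. Il1b, the cytokine interleukin-1 beta, was 517 CPM in young WT (429.9 to 616), 756 in treated WT (691 to 826), 106 in miR-146a-/- (90.8 to 124) and 147 in DKO (129.9 to 165) in the latter, a ratio of -2.83 (-3.09 to -2.58). Il1rn was 83.4 CPM in young WT, 292 in treated WT, 25.3 in miR-146a-/- and 79.4 in DKO. The neutrophil attractant Cxcl2 was 388 CPM in young WT, 607 in treated WT, 111 in miR-146a-/- and 237 in DKO. Both knockouts lay below treated WT for all 3. Tnfaip3, which encodes the NF-kB inhibitor A20, was 75.03 CPM in young WT, 179 in treated WT, 48.1 in miR-146a-/- and 47.1 in DKO. The chemokine gene Ccl4 was 179 CPM in young WT, 322 in treated WT, 49.3 in miR-146a-/- and 96.9 in DKO. The G-protein regulator Rgs1 was 58.4 CPM in young WT, 371 in treated WT, 29.7 in miR-146a-/- and 74.6 in DKO, and treated WT stood above the other 3 for each of these genes. Il1rn, Tnfaip3, Ccl4 and Rgs1 were below the minimum in miR-146a-/- in these cells and entered through treated WT alone. They could only come out lower, so the filter in part set the list's count and median. Il1b and Cxcl2 met the minimum in both libraries. Over all gated cells the T cell list summed to 123 CPM in treated WT, 32.9 in miR-146a-/- and 59.3 in DKO. The NK cell list summed to 216, 41.5 and 175 CPM in the same order. The part of lymphocyte RNA in the NF-kB ratios was not tested.

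Stress-responsive genes that dissociation can induce all had ratios below 0. The immediate early list had 0 higher and 6 lower of 16, with a median of -0.90, and summed to 15700.4, 14084, 7644 and 8648 CPM with Fos the most abundant. Hspa1a, an inducible heat shock gene, was 830.5 CPM in young WT, 425 in treated WT, 140.1 in miR-146a-/- and 159 in DKO in gated cells, highest in young WT and lowest in the knockouts. The part of tissue handling in these and in the NF-kB genes was not tested.

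The lipid-associated macrophage list gave, in miR-146a-/- over treated WT, 0 higher and 5 lower of 9 and a median of -1.26 over all gated cells, and 0 higher and 8 lower of 10 in the F13a1-Chil3-Fn1 cells. Cd63 had a ratio of -4.42 (-5.27 to -3.75) and Fabp5 of -1.99 (-2.24 to -1.74). Over gated cells Cd63 and Spp1 were below the minimum in miR-146a-/- and could only come out lower, while Fabp5 met it in both libraries. Trem2, the lipid-sensing receptor that names the state, was much the same in the treated libraries, at 45.9 CPM in young WT, 138 in treated WT, 133 in miR-146a-/- and 136 in DKO in the F13a1-Chil3-Fn1 cells. Apoe had a ratio of -1.78 over gated cells and Slc7a11 of -3.57 (-4.58 to -2.77). The lipid metabolism list gave 0 higher and 4 lower of 9, with a median of -0.46. MHC class II genes gave 0 higher and 1 lower of 8, with a median of -0.45. Of 8 listed NK cell genes 2 met the minimum, through treated WT alone, since the whole list summed to 41.5 CPM in miR-146a-/-. They could therefore only come out lower, and both were past 2-fold. The natural cytotoxicity receptor gene Ncr1 was among the 10 lowest ratios, at -2.99 (-3.98 to -2.18).

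Some interferon genes were at least 2-fold lower. The type I interferon list had 0 higher and 3 lower of 14, with a median of -0.43. For the interferon gamma list the count was 0 higher and 3 lower of 8, Ccl5 among the lower, with a median of -0.78. Counts in the F13a1-Chil3-Fn1 cells were 0 higher and 4 lower of 13 and 0 higher and 6 lower of 9. Rsad2, the antiviral enzyme viperin, was 87.5 CPM in young WT, 93.2 in treated WT, 6.33 in miR-146a-/- and 24.3 in DKO in these cells. Ifit3, an antiviral gene that blocks translation of foreign RNA with its relatives, was 225 CPM in young WT, 70.3 in treated WT, 5.06 in miR-146a-/- and 10.1 in DKO. Cd274, the inhibitory ligand PD-L1, was 66.7 CPM in young WT, 173 in treated WT, 20.2 in miR-146a-/- and 79.4 in DKO. All 3 were lowest in miR-146a-/-. They were below the minimum there and entered through treated WT alone, so against treated WT they could only come out lower.

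Promoters of 3 of these genes are shown because Rsad2 and Ifit3 were lower together in miR-146a-/- and Gbp2 differed between DKO and miR-146a-/-, and the genes were chosen after their values were seen. Each is 300 bases of RefSeq sequence (build GRCm38.p6), 250 before and 50 after the gene's start, and capitals mark GAAANNGAA, the core of the interferon-stimulated response element, on either strand. Ifit3 is at chr19:34583279-34583578 (plus strand), Rsad2 at chr12:26456403-26456702 (minus strand) and Gbp2 at chr3:142620413-142620712 (plus strand).
Ifit3: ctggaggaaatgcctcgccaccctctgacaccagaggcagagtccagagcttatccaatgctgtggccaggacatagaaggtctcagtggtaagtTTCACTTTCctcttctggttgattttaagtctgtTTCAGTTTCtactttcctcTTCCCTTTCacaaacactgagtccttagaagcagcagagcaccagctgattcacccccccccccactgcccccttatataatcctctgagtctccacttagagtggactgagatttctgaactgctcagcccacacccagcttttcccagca
Rsad2: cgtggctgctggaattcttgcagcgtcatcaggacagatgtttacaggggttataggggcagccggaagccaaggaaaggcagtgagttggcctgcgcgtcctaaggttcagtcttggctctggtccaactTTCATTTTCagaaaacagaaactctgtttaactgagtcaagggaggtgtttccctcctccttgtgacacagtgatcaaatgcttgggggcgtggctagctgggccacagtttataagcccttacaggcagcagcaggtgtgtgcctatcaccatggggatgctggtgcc
Gbp2: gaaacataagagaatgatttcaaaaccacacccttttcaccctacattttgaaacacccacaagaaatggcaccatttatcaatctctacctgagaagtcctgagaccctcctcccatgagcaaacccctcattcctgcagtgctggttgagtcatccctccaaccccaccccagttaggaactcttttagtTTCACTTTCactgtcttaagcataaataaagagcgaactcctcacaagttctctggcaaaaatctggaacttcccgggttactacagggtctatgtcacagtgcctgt
Ifit3 held 3 matches, Rsad2 1 and Gbp2 1. The core was in 8.56% of all 32851 promoters, in 11 of 18 promoters of the type I interferon list (17 of 22 genes matched) and in 10 of 13 of the interferon gamma list (11 of 15 matched). TTCNNNGAA, the gamma activated site, searched on both strands, was in 8.30% of all promoters, in 2 of 18 of the first list and 4 of 13 of the second. The core was also in the promoter of Saa3, which was higher in the knockouts. The letters TTGCNNAA, a C/EBP core chosen after the values were seen, occurred in the promoters of Lcn2 and Saa3 and in 10.8% of all. The letters GGGANTTTC, a kappa-B core chosen in the same way, occurred in neither and in 1.11% of all. The motifs can share bases, and a match describes letters only.

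The list of reported miR-146a targets had 1 higher and 1 lower of 9 over gated cells, with a median of -0.38. Irak1, the kinase that carries Toll-like receptor signals, was 77.3 CPM in young WT, 52.9 in treated WT, 62.5 in miR-146a-/- and 51.0 in DKO, so the libraries lay close together. The ubiquitin ligase gene Traf6 was 24.3 CPM in young WT, 34.7 in treated WT, 25.6 in miR-146a-/- and 26.7 in DKO. Sort1, a sorting receptor, was 20.05 CPM in young WT, 23.1 in treated WT, 52.9 in miR-146a-/- and 32.3 in DKO. It was the gene of the list past 2-fold higher, and Ccl5 the one past 2-fold lower. Over the F13a1-Chil3-Fn1 cells the list had 0 higher and 2 lower of 9, with a median of -0.70, and Sort1 did not pass 2-fold (0.99). Of the Toll-like receptor and adaptor list 0 higher and 0 lower of 5 were past 2-fold.

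In genes tied to suppressor function, the NADPH oxidase subunit Cybb was 687 CPM in young WT, 820.0 in treated WT, 831 in miR-146a-/- and 854 in DKO. Its partner Ncf4 was 179 CPM in young WT, 199.2 in treated WT, 284 in miR-146a-/- and 293 in DKO. Neither reached 2-fold in any of the 3 comparisons. Nos2, the inducible nitric oxide synthase, was at most 9.33 CPM in any library, and Il10 had 0 UMIs in all 4. The list had 1 higher and 1 lower of 16 in miR-146a-/- over treated WT, Wfdc21 and Cd274, with a median of 0.23, and 1 higher and 1 lower of 16 in DKO over miR-146a-/-, Cd274 and Wfdc17.

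DKO was compared with miR-146a-/- to ask what the added loss of Ccl5 goes with. The interferon gamma genes Cxcl9, Gbp2 and Cd274 and the lipid-associated gene Spp1 were higher in DKO, and Prtn3 and Wfdc17 lower. Saa3, Lcn2, Wfdc21 and Lrg1 were above both WT libraries in DKO in the F13a1-Chil3-Fn1 cells. Of 3230 genes 21 were at least 2-fold higher (0.650%) and 4 at least 2-fold lower (0.124%), among them Prtn3, Ccl5 and Wfdc17. Over the F13a1-Chil3-Fn1 cells 32 (0.980%) were higher and 9 (0.276%) lower of 3266. This comparison shares the miR-146a-/- library with the one above, so low values there enter both.

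Cxcl9, a T cell attractant induced by interferon gamma, was 29.2 CPM in young WT (11.7 to 60.1), 68.7 in treated WT (50.1 to 92.0), 22.8 in miR-146a-/- (16.0 to 31.5) and 288 in DKO (264 to 313) in the F13a1-Chil3-Fn1 cells, with a log2 ratio of DKO over miR-146a-/- of 3.64 (3.17 to 4.19). Over all gated cells it was found in 13, 11, 9 and 21 cells, so the level came from a minority. Gbp2, a guanylate-binding protein of host defence, was 163 CPM in young WT (116 to 222), 113 in treated WT (88.8 to 142), 40.5 in miR-146a-/- (31.2 to 51.7) and 207 in DKO (187 to 229), with a ratio of 2.34 (1.97 to 2.76). The interferon gamma list had 3 higher and 1 lower of 9 over gated cells, the lower one being the deleted Ccl5, with a median of 0.65 against -0.03 for all genes, and 5 higher and 0 lower of 9 in the F13a1-Chil3-Fn1 cells, with a median of 1.20. In the F13a1-Chil3-Fn1 cells Cxcl9, Gbp2 and Cd274 were below the minimum in miR-146a-/- and entered through DKO alone. They could only come out higher there, so the filter in part set this count and median. Cd274 had a ratio of 1.40 (0.98 to 1.85). Type I interferon genes gave 0 higher and 0 lower of 10 and a median of -0.19.

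Spp1 was 0 CPM in young WT (0 to 15.4), 180.3 in treated WT (149 to 216), 17.7 in miR-146a-/- (11.8 to 25.6) and 297 in DKO (273 to 323) in the F13a1-Chil3-Fn1 cells, from 1, 25, 15 and 32 gated cells, and its ratio of DKO over miR-146a-/- was 4.05 (3.52 to 4.67). Its level in DKO was above treated WT. After thinning, Spp1 was found in 19.3% (11 of 57) of F13a1-Chil3-Fn1 cells in treated WT, 2.33% (2 of 86) in miR-146a-/- and 13.2% (15 of 114) in DKO. T cells had it in 5.22% (195 of 3736), 2.43% (95 of 3913) and 1.56% (60 of 3839), so the miR-146a-/- share was near that of its T cells. The NF-kB list had 1 higher and 0 lower of 16, Il1rn at 1.34 (0.92 to 1.80), and a median of 0.11. The lipid-associated macrophage list had 1 higher and 0 lower of 8 over gated cells and 4 higher and 0 lower of 9 in the F13a1-Chil3-Fn1 cells. Over gated cells Spp1 and Il1rn met the minimum through DKO alone, so they could only come out higher. Il1b was 183 CPM in miR-146a-/- and 225 in DKO over gated cells. Clec12a, an inhibitory lectin, was 179 CPM in young WT, 178 in treated WT, 42.4 in miR-146a-/- and 162 in DKO, and miR-146a-/- was the low library. Serpina3g, an intracellular protease inhibitor, was 112 CPM in young WT, 55.4 in treated WT, 15.5 in miR-146a-/- and 69.0 in DKO. Ddit4, a stress-induced inhibitor of mTOR, was 14.3 CPM in young WT, 18.2 in treated WT, 20.5 in miR-146a-/- and 71.3 in DKO. Of these, Ddit4 was above both WT libraries in DKO, while Clec12a and Serpina3g were near or between their WT levels. The gene models Gm42031 and Gm47283, without a known role, had ratios of 2.65 (2.41 to 2.92) and 2.27 (1.70 to 2.95).

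Saa3 was higher in DKO than in miR-146a-/-, with a ratio of 1.20 (1.09 to 1.30) over gated cells, while Lcn2 had -0.11 (-0.40 to 0.18) and Wfdc21 -0.62 (-0.88 to -0.36). Prtn3 had a ratio of -2.14 (-2.52 to -1.78). Ly6c2 had -0.93 (-1.01 to -0.85), short of 2-fold, as were others among the 10 lowest ratios, the transcription factor gene Nfe2, Pdlim1 (-0.95), Ccnb2 (-0.92), Bcl11a (-0.91), a transcription factor gene of lymphoid and plasmacytoid cells, and C1galt1c1 (-0.91). Cell cycle genes gave 0 higher and 0 lower of 9 over gated cells, with a median of -0.11, and 0 higher and 4 lower of 9 in the F13a1-Chil3-Fn1 cells, with a median of -0.87. In the latter Top2a and Ccnb2 were below the minimum in DKO and entered through miR-146a-/- alone. MHC class II genes gave 0 higher and 0 lower of 7, with a median of 0.20 over gated cells, and the share of cells without them was lower in DKO. Classical monocyte genes outside the gate gave 0 higher and 1 lower of 15 over gated cells and 1 higher and 0 lower of 16 in the F13a1-Chil3-Fn1 cells.

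Wfdc17, a relative of Wfdc21, was 742 CPM in young WT (637 to 859), 746 in treated WT (681 to 815), 846 in miR-146a-/- (801 to 892) and 362 in DKO (335 to 390.2) in the F13a1-Chil3-Fn1 cells, and DKO was the lowest of the 4. It lies at chr11:83703991-83706268, on the same stretch of chromosome 11 as Ccl5 (chr11:83525778-83530518), the gene deleted in DKO. Of the list of genes around Ccl5, Ccl5 among them, 0 higher and 1 lower of 7 were past 2-fold, the lower one being Ccl5, and the median was -0.38. That list left out Wfdc17, itself past 2-fold lower, and Wfdc21, which lies nearby and was lower but short of 2-fold. The chemokine gene Ccl6 was 912 CPM in young WT, 547 in treated WT, 518 in miR-146a-/- and 293 in DKO. Its neighbour Ccl9 was 186 CPM in young WT, 246 in treated WT, 284 in miR-146a-/- and 218 in DKO. Whether the region around the deletion had a part in these values was not tested.

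Xcl1 and Cd7, genes of T and NK cells, were among the 10 highest ratios, at 4.27 and 1.59. Xcl1 came from 7 DKO cells, 1 of which held 47.0% of its UMIs. The T cell list summed to 77.3, 123, 32.9 and 59.3 CPM in gated cells, with Skap1 the most abundant and Cd3 at 0 by the gate. Hepatocyte genes summed to 55.8, 29.8, 15.1 and 21.99 CPM, led by Alb, erythroid and platelet genes to 4.30, 2.48, 2.74 and 1.67, led by Pf4, and B cell genes to 302, 239, 179.8 and 138, led by Ighm. Plasmacytoid dendritic cell genes summed to 331, 560.5, 299.8 and 286 CPM, led by Bst2, which other cells also express. Kupffer cell genes summed to 117, 214, 159.7 and 202 CPM, led by Hmox1, and 1 of the 10 had 0 UMIs in all 4 libraries. Lists of endothelial and stellate cell genes summed to 15.8, 23.1, 14.1 and 15.3 CPM, and 3 of 8 were at 0 throughout.

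**Figure D5:**
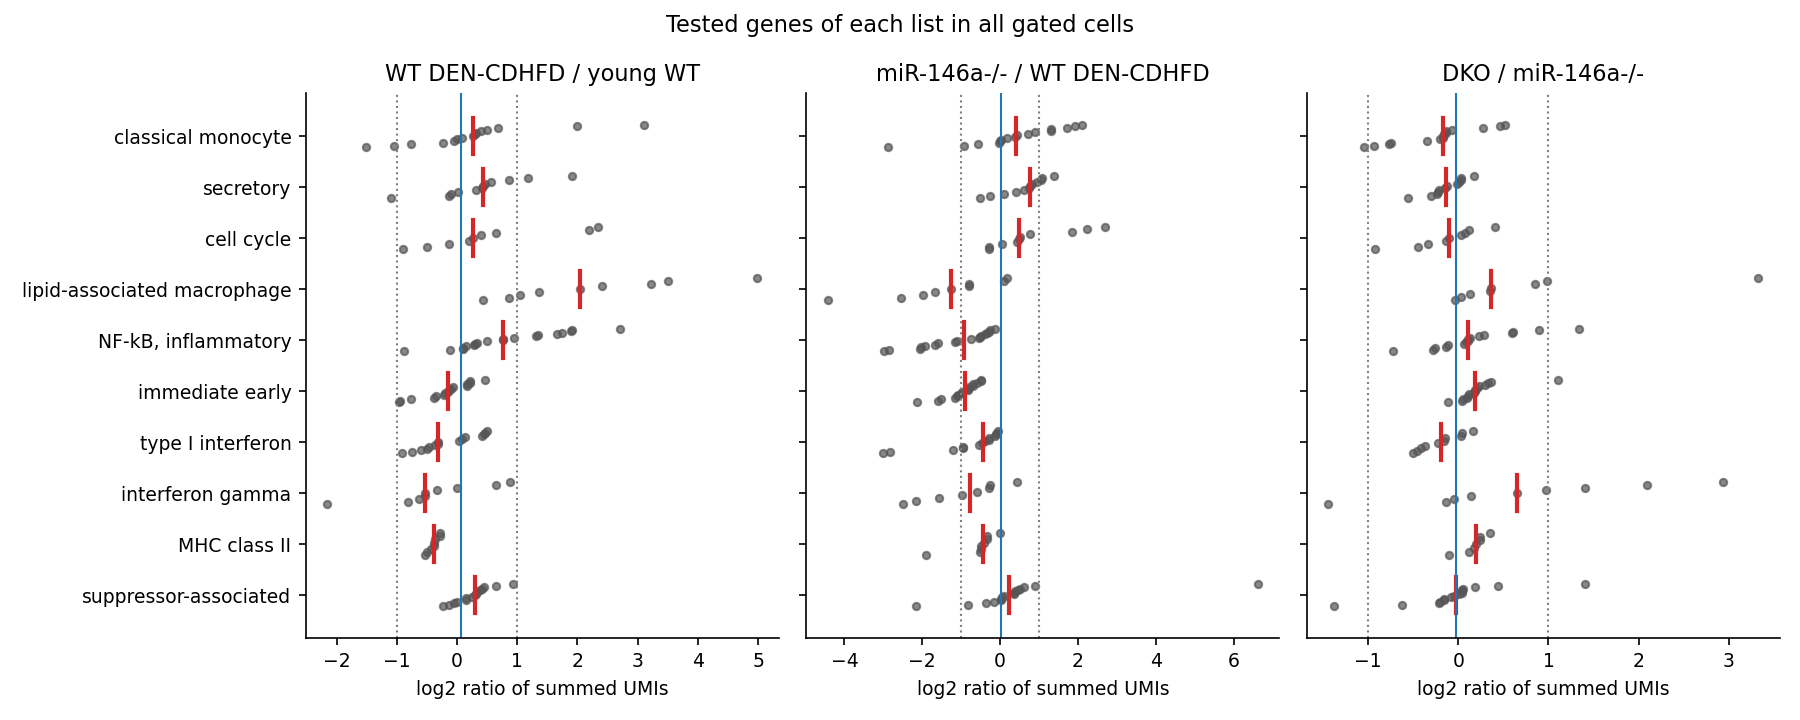
Each point is 1 gene of a list that met the minimum, with its log2 ratio between 2 libraries over all gated cells on the x axis, lists as rows and 1 panel per comparison. Red bars are list medians, blue lines the median of all genes and dotted lines 2-fold. Lipid-associated macrophage genes lie to the right in the first panel (median 2.04) and to the left in the second (median -1.26), and interferon gamma genes to the right in the third (median 0.65). Genes that met the minimum in 1 library only were mostly bound to be higher there, which in part sets these medians.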

How the data were processed

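The authors deposited unnormalised UMI counts per gene and cell from 10x 5′ libraries, made by Cell Ranger 7.0.1 per the file headers, for droplets called as cells, with 32285 gene rows. The study's methods name an earlier version, and whether intronic reads were counted was not stated. Cells were filtered and gated on these counts as given in the report. UMIs were summed over the gated cells of a library and compared as log2 ratios with a prior of 0.5 counts, with exact conditional binomial intervals for ratios, exact Poisson intervals for CPM and Clopper-Pearson intervals for shares. No test was made, since each group was 1 library. Mitochondrial, ribosomal protein, T cell receptor and immunoglobulin variable genes were left out of the counts past 2-fold. Named genes were those of 37 lists (2 listed genes had no row), the 10 highest and 10 lowest ratios per comparison, the 20 most abundant genes and the gate genes. Some listed genes are not reported here. Members and lists were chosen with earlier results of these data known. Doublets were limited only by the gene number and Cd3 conditions. Alternatives changed filters, gate, scaling, prior and thinning. Tools were Python 3.11.15, NumPy 2.4.6, SciPy 1.17.1, pandas 2.3.3, R 4.3.3 and edgeR 4.0.16, and the code was checked on simulated data.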

Additional observations from a re-analysis of the deposited data

How the results depend on the processing

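No paired analysis was possible because each group is 1 library, so an alternative shows how a value depends on a choice and not how it varies between mice. Of 600 log2 ratios of named genes under alternatives, 555 kept their direction and their side of 2-fold, 24 no longer passed it, 9 newly passed it and 12 turned direction, 6 of which rest on at most 1 UMI in either library. With a minimum of 10 CPM the genes at least 2-fold higher and lower were 361 and 174 for treated over young WT, 317 and 321 for miR-146a-/- over treated WT, and 102 and 55 for DKO over miR-146a-/-. More genes enter at that minimum.

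Without the limit on Cd3 the treated over young WT counts were 59 higher and 39 lower, 8 were lower in DKO, Gzma was at 1.18, and the shares of gated cells were 0.953%, 2.93%, 2.86% and 2.56%. Thinned to 4000 UMIs, 240 genes were higher in treated than young WT, 147 higher and 208 lower in miR-146a-/-, and 43 higher and 36 lower in DKO. Thinned before the gate, gated cells were 1.5% of treated WT, 2.66% of miR-146a-/- and 3.17% of DKO.

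With at most 4500 detected genes 32 were higher and 14 lower in DKO, Ccl5 in DKO over miR-146a-/- was at 2.002, and the shares were 1.11% in miR-146a-/- and 1.41% in DKO. A Lyz2 minimum of 20 UMIs gave 9 lower genes in DKO and 0.14 for Cxcl9 in treated over young WT. A minimum of 5 gave shares of 1.42% in treated WT and 2.05% in DKO. The mean over cells gave 7 lower genes in DKO. With other lineages' UMIs at 0, treated over young WT was at -0.81 for Klk1, for Xcl1 and for Ctsw (0 UMIs in both) and at 0.77 for Gzma (1 UMI against 0), set by the prior and the depth, and Ccl5 in DKO over miR-146a-/- at 1.66.

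With the patrolling genes at 0 the shares were 0.311%, 0.720%, 1.09% and 1.03%. As a share of Lyz2 cells without Cd3 they were 18.9%, 19%, 12.1% and 10.7%. The share of gated cells without MHC class II was 7.53% in treated WT and 16.9% in DKO without thinning, and 7.78%, 24.2% and 10.5% in treated WT, miR-146a-/- and DKO with Cd74 added.

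Counting F13a1, Chil3 and Fn1 without Ccr2, an alternative chosen after seeing the data, gave 231 higher genes in treated over young WT, 152 higher and 227 lower in miR-146a-/-, and 32 higher and 9 lower in DKO. The shares became 0.175%, 0.720%, 1.11% and 1.17%, and those without MHC class II 44.4%, 26.3%, 57.0% and 40.4%. Treated over young WT was then at 0.14 for Rtl8c (1 UMI against 0), 1.15 for Cxcl9 (45 against 7) and 2.94 for Cd24a (10 against 0). Without the 1 cell with most of its UMIs, also chosen after seeing the data, Gzma was at 0.78 (1 UMI against 0). Except where the choice itself admits more or fewer cells or genes, the cause of these differences was not tested. Young WT had 18 F13a1-Chil3-Fn1 cells, which limits its precision.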

Other observations

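Cells that failed the gate only for a Cd3 UMI numbered 53 in young WT, 151 in treated WT, 103 in miR-146a-/- and 80 in DKO. Their median Cd3 UMIs were 20, 27, 18 and 14, and their median depth 20678, 19207, 21709 and 20672.5 UMIs. Saa3 in these cells was 3.66 CPM in young WT, 92.3 in treated WT, 488 in miR-146a-/- and 989.6 in DKO, and Lcn2 was 0, 1.70, 88.3 and 105 CPM. Both genes were thus higher in both knockouts in cells that the gate left out. Whether these were doublets of monocytes and T cells was not tested.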
